A study of Mus musculus with 24 samples.

Results

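The transcripts of 10 cytokine receptor chains were measured in T cells sorted from mouse melanomas: Il2ra, Il2rb, Il2rg, Il7r, Il21r, Il12rb1, Il12rb2, Il10ra, Il18r1 and Il1rl1. They were taken by symbol from the deposited count table, as 10 of its 54957 gene rows, and 10 of 10 passed the filter on low counts in each comparison. The 24 libraries came from tumours grown from B16F10-OVA, melanoma cells of the mouse that express the model antigen ovalbumin. Every tumour-bearing mouse had received 200 micrograms of an antibody 1 day before the tumour was taken, so no group is untreated. The 6 groups of 4 libraries were CD8 T cells given isotype control antibody (CD8 isotype), anti-PD-1 (CD8 anti-PD-1) or anti-JAML (CD8 anti-JAML), and CD4+FOXP3+ regulatory T cells after the same antibodies (Treg isotype, Treg anti-PD-1 and Treg anti-JAML). PD-1 restrains T cells that have met antigen, and JAML belongs to the junctional adhesion molecules, which hold cells to one another. Each library was made by Smart-seq2, which amplifies polyadenylated RNA along the whole transcript, from fewer than 400 cells. The labels give no strain, sex or age, and leave it unsaid whether different mice gave the libraries of a group; the p-values therefore rest on library-to-library spread, which may be technical.

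Cytokine receptors of this kind are assembled from chains that are partly shared. IL-2 binds with high affinity to a complex of the alpha chain (Il2ra, CD25), the beta chain (Il2rb, CD122) and the common gamma chain (Il2rg), and Treg cells are known for constitutive CD25 and for their need of IL-2. The common gamma chain also pairs with the IL-7 receptor alpha chain (Il7r, CD127), which memory and naive T cells keep and which activated T cells and Treg cells usually carry at low levels, and with the IL-21 receptor (Il21r). IL-12 is read by Il12rb1, which is shared with the IL-23 receptor, together with the signalling chain Il12rb2; these receptors signal through JAK kinases and STAT factors, as does Il10ra, the ligand-binding chain for IL-10. Il18r1 and Il1rl1 (ST2, the receptor for IL-33) belong to the IL-1 receptor family, which signals through MyD88 and IRAK proteins, and ST2 is known on a part of tissue Treg cells.

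Total counts ranged from 11170918 to 22556460 per library, with a median of 16238787. The sorted identities held in the marker transcripts: Foxp3 was at 0 in all 12 CD8 libraries and between 40.6 and 169 CPM in the Treg libraries, and Cd8a was between 0 and 0.0761 CPM in the Treg libraries and between 1096 and 1898 CPM in the CD8 libraries (CPM, counts per megacount of library size, used TMM scaling of the 24 libraries). Some libraries stood apart. Lyz2, a macrophage transcript, reached 658 and 866 CPM in replicates 1 and 4 of Treg anti-PD-1, 112 CPM in replicate 2 of that group, 412 CPM in replicate 2 of CD8 anti-JAML and 106 CPM in replicate 4 of CD8 anti-PD-1, against at most 41.1 CPM in the others. Replicate 4 of CD8 anti-JAML had the highest share of mitochondrially encoded counts, 6.89%. A GC contrast was also computed for each library: the median centred log2 CPM of genes above the upper quartile of transcript GC content (54.4%) minus that of genes below the lower quartile (45.3%). Its mean was highest in Treg anti-PD-1, at 0.37 ± 0.28 (SD, n = 4), against 0.02 ± 0.15 in Treg isotype and -0.14 ± 0.08 in CD8 isotype. The number of genes detected was 14720 ± 500 in Treg anti-PD-1 and 13265 ± 763 in Treg isotype.

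Between genes, levels can be compared only per transcript length, for which the authors' TPM values were used. In bulk libraries, fewer cells of a type and less RNA per cell cannot be told apart. The common gamma and beta chains were the most abundant of the 10 transcripts in all 6 groups. Il2rg stood at 529 ± 51.4 TPM in CD8 isotype and 1057 ± 120 TPM in Treg isotype (SD, n = 4), and Il2rb at 241 ± 47.5 and 407 ± 136 TPM. In the isotype groups of both populations Il2rg was above Il2rb in 4 of 4 libraries with no overlap of their ranges, whereas after anti-PD-1 the ranges overlapped and Il2rg was the higher of the pair in 2 of 4 libraries in each population. The alpha chain Il2ra ranked 3 of 10 in each Treg group and 7 of 10 in each CD8 group. Its level in TPM was 84.1 ± 25.9 in Treg isotype and 12.5 ± 3.41 in CD8 isotype. Il2ra made up 5.37% ± 1.23 of the summed TPM of the 3 IL-2 receptor chains in Treg isotype, 9.34% ± 2.35 in Treg anti-PD-1 and 7.64% ± 1.77 in Treg anti-JAML. The share was 1.60% ± 0.44 in CD8 isotype, 3.06% ± 2.29 in CD8 anti-PD-1 and 1.87% ± 0.979 in CD8 anti-JAML.

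The lower part of the order was less distinct. In CD8 isotype Il10ra had rank 3, at 88.2 ± 17.5 TPM, clear of Il18r1, Il21r and Il7r at 26.7 ± 8.43, 26.6 ± 5.25 and 22.98 ± 14.1 TPM, whose ranges overlapped. Il12rb2 and Il12rb1 lay at 5.67 ± 1.35 and 5.56 ± 1.48 TPM with overlapping ranges, and Il1rl1 was last at 0.0730 ± 0.130 TPM. In Treg isotype the neighbours from Il2ra downwards all overlapped in range: Il7r at 82.2 ± 27.6, Il10ra at 59.8 ± 21.1, Il18r1 at 41.3 ± 11.9, Il21r at 32.6 ± 24.4, Il12rb1 at 17.3 ± 11.6, Il1rl1 at 7.70 ± 4.47 and Il12rb2 at 3.08 ± 1.98 TPM. In CD8 anti-JAML, Il7r had rank 3, with 115 ± 59.4 TPM, overlapping Il10ra at 105 ± 48.8 TPM. After anti-PD-1, Il7r ranked 7 in Treg cells with 39.7 ± 10.1 TPM.

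**Figure D1:**
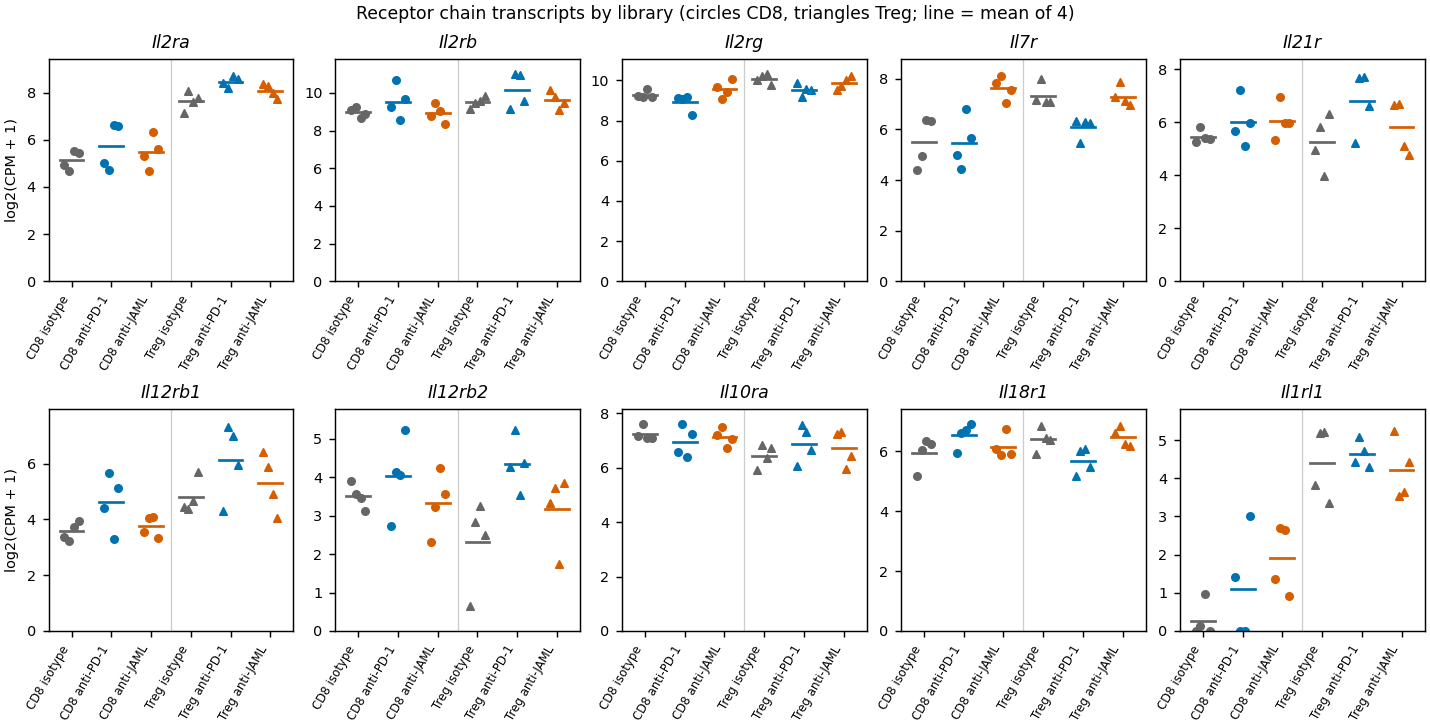
Transcript level of each receptor chain in the 24 libraries, as log2(CPM + 1) on the vertical axis, by population and antibody on the horizontal axis; circles are CD8 libraries, triangles are Treg libraries and each bar is the mean of 4. Il2ra and Il1rl1 are higher in each Treg library than in any CD8 library, Il7r is high in CD8 anti-JAML and low in Treg anti-PD-1, and Il2rb, Il21r, Il12rb1 and Il10ra spread most after anti-PD-1.

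CD8 and Treg cells were compared first within each antibody group and then over all 24 libraries. The latter fit had a mean for each of the 6 groups, and its contrast was the mean of the 3 differences within an antibody group. Every chain called in these fits was lower in CD8 cells. The 10 chains were chosen with earlier results of these data known, so the counts beside the shares of all genes are a description. After isotype antibody 6 of the 10 chains were called by the quasi-likelihood test of edgeR at an adjusted p under 0.05, and all 6 were lower in CD8 cells; in the same comparison 15.3% of 11680 genes were called, 7.12% as lower. The calls of Il2rb, Il7r and Il12rb1 depended on single libraries: without replicate 3 or 4 of Treg isotype, or replicate 1 or 2 of CD8 isotype, these 3 were lost and 3 chains were called, and without 1 of the other 4 libraries 4 to 6 were. Groups without overlap in CPM were counted for 6 of 10 chains, against 26.6% of genes. The median log2 fold change of the 10 was -0.75, beside -0.06 over all genes tested. After anti-PD-1 the test called 1 of 10 (lower), against 7.83% of genes called and 4.21% as lower, and 3 of 10 did not overlap, against 17.5%. After anti-JAML it called 1 of 10 (lower), against 2.08% of genes called and 1.35% as lower, and 2 of 10 did not overlap, against 11.2%. Over all antibody groups 5 of 10 were called, all lower in CD8 cells, against 26.1% of genes called and 11.9% called as lower.

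Il2ra (ENSMUSG00000026770.5, mm10 chromosome 2, 11642807 to 11693193, plus strand) showed the widest gap among the chains that were measured well in both populations. In Treg isotype it stood at 141, 269, 195 and 216 CPM in order of replicate number, in Treg anti-PD-1 at 335, 288, 410 and 379 CPM, and in Treg anti-JAML at 331, 306, 249 and 211 CPM. The CD8 libraries held 29.7, 24.4, 45.1 and 41.9 CPM after isotype, 31.6, 25.6, 98.8 and 96.1 CPM with anti-PD-1, and 39.3, 24.4, 78.8 and 47.2 CPM with anti-JAML. The lowest Treg library thus lay above the highest CD8 library, so the populations did not overlap. The log2 fold change of CD8 over Treg was -2.61 ± 0.27 (SE) in the isotype groups (edgeR adjusted p = 0.00044), -2.49 ± 0.44 in the anti-PD-1 groups (0.00962) and -2.63 ± 0.35 in the anti-JAML groups (0.00542). Over all 24 libraries it was -2.52 ± 0.22 with an edgeR adjusted p of 1.64e-08. The difference was as large with the GC contrast of each library as a covariate, at -2.80, and without replicates 1 and 4 of Treg anti-PD-1, at -2.51. Markers of dendritic cells, which can also carry CD25, summed over their list of 8 to 880.6 to 1947 CPM in Treg isotype, 465 to 2106 CPM in Treg anti-PD-1 and 327 to 2558 CPM in Treg anti-JAML, against 257 to 1044, 69.1 to 338 and 209.5 to 537 CPM in the CD8 groups in the same order. Cd74, which other antigen-presenting cells share, gave much of the sum. The mean of Cd74 was 799.8 to 1022 CPM over the Treg groups and 162 to 374 CPM over the CD8 groups, and the class II genes H2-Ab1 (209.7 to 271 against 46.8 to 102 CPM) and H2-Aa (91.8 to 114 against 14.4 to 55.2 CPM) were also higher on average in the Treg groups. Zbtb46 averaged 9.29 to 21.5 CPM over the Treg groups and 4.56 to 15.5 CPM over the CD8 groups, and Xcr1 4.87 to 23.7 and 10.6 to 18.4 CPM. Itgax averaged at most 1.24 CPM in a Treg group, with 0 in Treg anti-JAML, and at most 4.39 CPM in a CD8 group. Flt3 and Clec9a were at 0 in all CD8 libraries; in the Treg groups Flt3 averaged 0 after isotype and up to 1.02 CPM after anti-JAML, and Clec9a 0.21 to 0.548 CPM. The part of such cells in the Il2ra values was not tested.

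The 250 bases before the RefSeq start of Il2ra are given because its level separated the populations without overlap. The window lies at chr2:11642542-11642791 on the plus strand of GRCm38.p6, the build that mm10 denotes, and the capitals mark the match to an NF-kB motif (GGGA, any base, T, any base and CCC, searched on both strands), whose first base is 201 bases before the start. NF-kB is a transcription factor family activated by antigen receptor and cytokine signals.
Il2ra: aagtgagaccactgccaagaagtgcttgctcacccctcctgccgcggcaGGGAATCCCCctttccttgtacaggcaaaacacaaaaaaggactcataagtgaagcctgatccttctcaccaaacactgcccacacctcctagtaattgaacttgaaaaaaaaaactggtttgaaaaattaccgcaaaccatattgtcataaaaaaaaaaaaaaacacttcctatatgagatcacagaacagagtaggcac
Of 32851 RefSeq promoter windows of this length, 0.944% hold that motif; it was added to the search after this window had been read. None of the other motifs searched on both strands was found in this window: STAT (TTCNNNGAA, in 7.02% of windows), AP-1 (TGANTCA, 6.75%), forkhead (TGTTTAC, 3.17%), ETS (CCGGAAGT, 2.88%) and Runx (TGTGGTT, 4.396%). A match is a run of letters and not a site shown to be bound.

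The partner chains of Il2ra differed less. Il2rg (mm10 chromosome X, 101264378 to 101268255, minus strand) stood at 1049, 1170, 1286 and 885.5 CPM in Treg isotype and at 589, 574, 746 and 581 CPM in CD8 isotype. These groups did not overlap, and the log2 fold change was -0.89 ± 0.15 (SE; edgeR adjusted p = 0.0049). Over all antibody groups Il2rg was lower in CD8 cells by -0.57 ± 0.13 on the log2 scale (0.00161). Within the anti-PD-1 groups the value was -0.61 ± 0.23 (0.139) and within the anti-JAML groups -0.38 ± 0.25 (0.618), neither past the threshold. Within groups, Il2rg fell as more genes were detected (Pearson r = -0.77). The number of genes detected was 14095 ± 210 in CD8 isotype and 13265 ± 763 in Treg isotype (SD, n = 4). The part of that relation in the Il2rg difference between populations is not given here.

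Il2rb (mm10 chromosome 15, 78479256 to 78495271, minus strand) lay close to the threshold. Treg isotype held 573, 694, 757 and 926 CPM and CD8 isotype 548, 611, 402 and 463 CPM, so the groups overlapped at 1 library of each. Its log2 fold change was -0.61 ± 0.18 after isotype (edgeR adjusted p = 0.0493) and -0.62 ± 0.23 over all antibody groups (0.0461). The first call was lost in 7 of 8 fits that left out a library, at up to 0.141, and the second in 16 of 24, at up to 0.0875. With the GC contrast as a covariate the value over all groups was -0.02, with an adjusted p of 0.973.

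Il7r (mm10 chromosome 15, 9505788 to 9530176, minus strand) was lower in CD8 than in Treg cells after isotype antibody. The Treg isotype libraries held 140, 255, 135 and 135 CPM and the CD8 isotype libraries 20.1, 29.6, 81.5 and 79.7 CPM. All 4 Treg values were above all 4 CD8 values, with a log2 fold change of -1.73 ± 0.46 (SE; edgeR adjusted p = 0.0339). Leaving out 1 of 5 of the 8 libraries in turn moved the adjusted p past the threshold, to at most 0.0952. The log2 fold change in those 5 fits lay between -1.44 and -1.82, and over all 8 fits between -1.44 and -2.01. The same contrast gave -0.39 ± 0.47 in the anti-PD-1 groups (0.651) and 0.25 ± 0.29 in the anti-JAML groups (0.831). Over all antibody groups Il7r was -0.57 ± 0.26 (adjusted p = 0.108). Without replicate 3 of CD8 anti-PD-1, the CD8 library of that group with the most Il7r, it was -0.78 with an adjusted p of 0.0151.

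Il21r did not separate the populations. In CD8 cells it ranged from 33.4 to 149 CPM with a median of 52.6, and in Treg cells from 14.6 to 210 CPM with a median of 66.6. The ranges overlapped almost throughout, and the log2 fold change over all groups was -0.27 ± 0.32 (edgeR adjusted p = 0.605). Its promoter window, at chr7:125603179-125603428 on the plus strand, is given because forkhead factors include Foxp3 and this window holds 1 match to the forkhead letters, in capitals, which begins 38 bases before the start.
Il21r: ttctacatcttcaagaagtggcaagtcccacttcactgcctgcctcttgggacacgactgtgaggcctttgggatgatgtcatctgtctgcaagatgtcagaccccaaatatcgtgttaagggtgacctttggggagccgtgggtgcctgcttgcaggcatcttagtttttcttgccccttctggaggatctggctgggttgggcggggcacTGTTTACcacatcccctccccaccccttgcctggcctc
Binding of any factor there was not measured in these libraries.

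The IL-12 receptor chains went separate ways. Il12rb1 (mm10 chromosome 8, 70808449 to 70821424, plus strand) held 20.9, 20.0, 24.3 and 51.3 CPM in Treg isotype and 9.36, 8.45, 12.4 and 14.5 CPM in CD8 isotype, with no overlap. The log2 fold change of CD8 over Treg was -1.44 ± 0.41 after isotype (SE; edgeR adjusted p = 0.0448), -1.70 ± 0.65 after anti-PD-1 (0.142), -1.95 ± 0.53 after anti-JAML (0.114) and -1.64 ± 0.33 over all groups (0.00061). The isotype call was lost in 6 of 8 fits that left out a library, at up to 0.12. With the GC contrast as a covariate the value over all groups was -0.66 (adjusted p = 0.128), and that within the anti-PD-1 groups was 0.22. The anti-PD-1 groups gave a call without replicate 1 of Treg anti-PD-1, at -2.04 (0.0345), and without replicates 1 and 4, at -2.35 (0.034).

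Il12rb2 (mm10 chromosome 6, 67291318 to 67376188, minus strand), the chain that confers IL-12 signalling, was low in both populations. It ranged from 3.97 to 36.3 CPM in CD8 cells and from 0.571 to 36.4 CPM in Treg cells, where 1 library had only 11 counts. No difference was called, with 0.35 ± 0.40 over all groups (edgeR adjusted p = 0.576). These counts are uncertain, because 1519 of its 3794 exon bases overlap exons of Serbp1 on the opposite strand, an abundant gene with a median of 6307 counts, and a strand setting is not given in the sources used here. The promoter window of Il12rb2, at chr6:67376189-67376438 on the minus strand, is shown for its match to the STAT letters, in capitals, which begins 123 bases before the start. Among the other windows found for the chains, that of Il7r holds 1 match to these letters and 1 of the 3 windows of Il18r1 holds 2.
Il12rb2: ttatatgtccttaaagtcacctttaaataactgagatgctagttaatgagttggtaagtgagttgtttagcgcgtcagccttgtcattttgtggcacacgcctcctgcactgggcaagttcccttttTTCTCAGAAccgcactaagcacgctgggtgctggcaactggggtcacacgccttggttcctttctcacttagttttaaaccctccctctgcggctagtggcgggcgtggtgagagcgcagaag

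Il10ra (mm10 chromosome 9, 45253837 to 45269149, minus strand) was the 1 chain higher in CD8 cells after isotype at an unadjusted p under 0.05, and it did not reach the threshold. CD8 isotype held 143, 193, 136 and 134 CPM, and Treg isotype 58.6, 113, 80.2 and 103 CPM. The lowest CD8 value exceeded the highest Treg value, and the log2 fold change was 0.70 ± 0.23 (SE) with an unadjusted p of 0.0125 and an edgeR adjusted p of 0.0699. Within the anti-PD-1 groups the log2 fold change was 0.04 ± 0.36 and within the anti-JAML groups 0.21 ± 0.34.

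Il1rl1 (mm10 chromosome 1, 40429570 to 40465415, plus strand) was close to absent from CD8 cells. After isotype the CD8 libraries had 0, 1, 13 and 0 counts (0, 0.0853, 0.949 and 0 CPM), and the Treg libraries had 255, 797, 610 and 142 counts (13.2, 35.5, 36.2 and 9.18 CPM). After anti-PD-1 the CD8 libraries held 1.68, 0, 0 and 7.11 CPM and the Treg libraries 20.5, 32.8, 25.1 and 18.7 CPM. After anti-JAML they held 1.56, 5.48, 5.27 and 0.894 CPM and 36.6, 10.5, 11.5 and 20.7 CPM. Each of the 12 Treg libraries was above each of the 12 CD8 libraries. The fitted log2 fold change was -6.52 ± 1.38 after isotype (edgeR adjusted p = 0.0128) and -4.16 ± 0.76 over all groups (0.00023); it rests on near-zero CD8 counts, and without replicate 3 of CD8 isotype these values were -9.47 and -5.15. Without replicate 4 of CD8 anti-PD-1 the value over all groups was -4.91. Within the anti-PD-1 groups the value was -3.47 ± 1.31 (0.136) and within the anti-JAML groups -2.68 ± 0.80 (0.154).

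Mast cells and type 2 innate lymphoid cells also express ST2. The mast cell transcripts Fcer1a, Ms4a2 and Mcpt4 were at 0 in all 24 libraries, and Cpa3 averaged 0.588 CPM in Treg isotype. Cma1 was at 0 in every group but CD8 anti-JAML. Il17rb, a further marker on the list, was at 0 in CD8 isotype and had counts in every other group, each Treg group included. The summed level of the 8 markers of these cells ranged from 14.2 to 77.2 CPM in Treg isotype, 26.5 to 53.3 CPM in Treg anti-PD-1 and 3.62 to 37.2 CPM in Treg anti-JAML, against 0 to 4.18, 1.21 to 25.1 and 6.03 to 59.8 CPM in the CD8 groups in the same order. In Treg isotype most of it was Areg, which Treg cells can express, at a mean of 39.5 CPM, and in CD8 anti-JAML most of it was Kit, at 26.0 CPM. The part of such cells in the Il1rl1 values was not tested.

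RefSeq has 2 promoter windows for Il1rl1, the other gene that separated the populations without overlap. The first in position, which is given here, lies at chr1:40429320-40429569 on the plus strand, and none of the 6 motifs was found in it, so it has no capitals.
Il1rl1: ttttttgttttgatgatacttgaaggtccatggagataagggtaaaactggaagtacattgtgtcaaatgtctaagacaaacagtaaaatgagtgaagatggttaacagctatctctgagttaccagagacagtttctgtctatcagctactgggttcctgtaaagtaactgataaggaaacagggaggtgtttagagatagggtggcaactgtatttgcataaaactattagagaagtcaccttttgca
No match says only that these letters are not in this window. The second window, at chr1:40439379-40439628, holds 1 match to the forkhead letters, as the window of Il21r does, and none to the other 5 motifs.

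Il18r1 (mm10 chromosome 1, 40465552 to 40500854, plus strand) begins 136 bases after the end of Il1rl1 on the same strand, in a cluster with Il1r2, Il1r1, Il1rl2 and Il18rap, yet its level did not follow that of its neighbour. It ranged from 34.7 to 119 CPM with a median of 70.4 in CD8 cells and from 34.8 to 115 CPM with a median of 73.0 in Treg cells. The log2 fold change over all groups was 0.04 ± 0.17 (edgeR adjusted p = 0.912). After anti-PD-1 alone Il18r1 was 0.86 ± 0.28 higher in CD8 cells (unadjusted p = 0.0119, adjusted p = 0.0942), and 0.55 without replicates 1 and 4 of Treg anti-PD-1. The neighbour on its other side, Il18rap, the second chain of the IL-18 receptor, was higher in CD8 cells by 1.58 ± 0.23 over all groups.

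**Figure D2:**
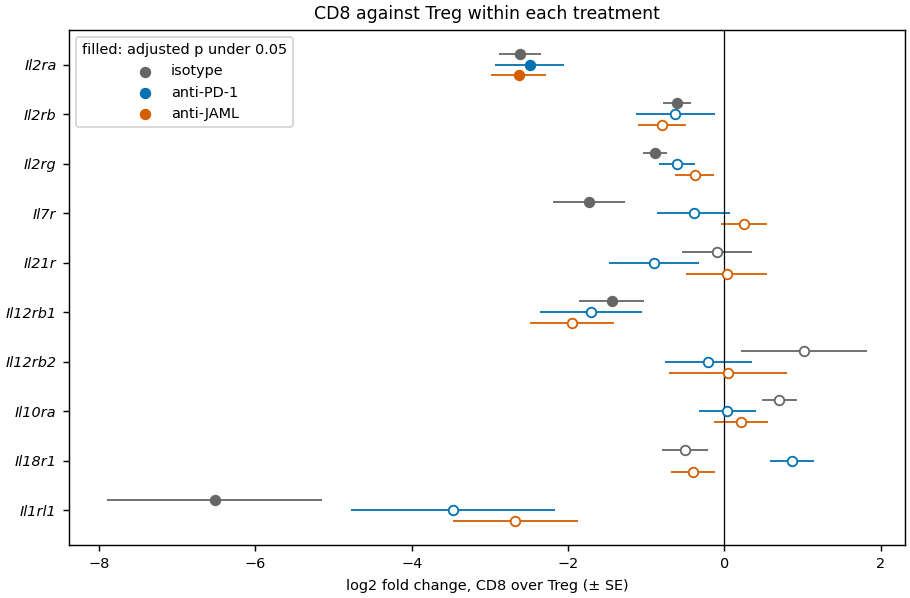
Log2 fold change of CD8 over Treg cells (horizontal axis, with SE bars) for each receptor chain, by the antibody given; filled points passed an adjusted p under 0.05 in edgeR. Il2ra lies between -2.49 and -2.63 under all 3 antibodies, Il7r moves from -1.73 after isotype to 0.25 after anti-JAML, and Il21r, Il12rb2, Il10ra and Il18r1 are not called.

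Because a receptor works as a complex, the ratio of its chains was also compared within each library, which does not depend on the scaling between libraries. The difference between populations in the mean log2 ratio of counts (with 1 added) was tested over all 24 libraries by an exact two-sided permutation of population labels within each antibody group, adjusted over 9 chain pairs. Of the 9 pairs 6 were called. Il2ra was lower in CD8 cells relative to Il2rb by a log2 difference of -2.02 (adjusted permutation p = 5.25e-05) and relative to Il2rg by -2.05 (2.62e-05, from the smallest p that the permutations can give, 5.83e-06). Il2rb relative to Il2rg differed by -0.04 (0.906), Il7r relative to Il2rg by -0.13 (0.768) and Il21r relative to Il2rg by 0.47 (0.396). These 3 are means over antibody groups whose differences varied in sign. For Il7r the difference was -1.03 in the isotype groups, -0.01 in the anti-PD-1 groups and 0.64 in the anti-JAML groups. In the same order it was 0.27, 0.004 and -0.39 for Il2rb, and 1.03, -0.20 and 0.57 for Il21r.

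For the receptors outside the gamma-chain family the transcript ratio of the chains differed between populations, while protein was not measured. For Il18r1 relative to its partner Il18rap the mean log2 ratio was 0.56 ± 0.76 in Treg cells (SD, n = 12). It was -0.98 ± 0.61 in CD8 cells, a difference of -1.54 (adjusted permutation p = 5.25e-05). Counts are not scaled per transcript length, so only this difference is read, not which chain was the more abundant. Il12rb2 relative to Il12rb1 was higher in CD8 cells by 1.97 (adjusted permutation p = 0.0026), which shares the uncertainty of the Il12rb2 counts and the movement of Il12rb1 with the GC contrast; the part of the latter in this ratio was not tested. Il10ra relative to Il10rb was higher in CD8 cells by 0.74 (0.0121). This difference was 1.37 in the isotype groups, 0.38 in the anti-PD-1 groups and 0.48 in the anti-JAML groups. Il10ra also rose with the GC contrast within groups (Pearson r = 0.79), and the part of that relation in this ratio was not tested. Il1rl1 relative to Il1rap, the accessory chain of the IL-33 receptor, was lower in CD8 cells by -5.50 (2.62e-05), with no overlap between the 12 CD8 and the 12 Treg libraries. The Il1rap counts were low, with means from 7.98 to 19.6 CPM over the groups and 0 in replicate 4 of Treg anti-JAML, without which this difference was -4.87.

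**Figure D3:**
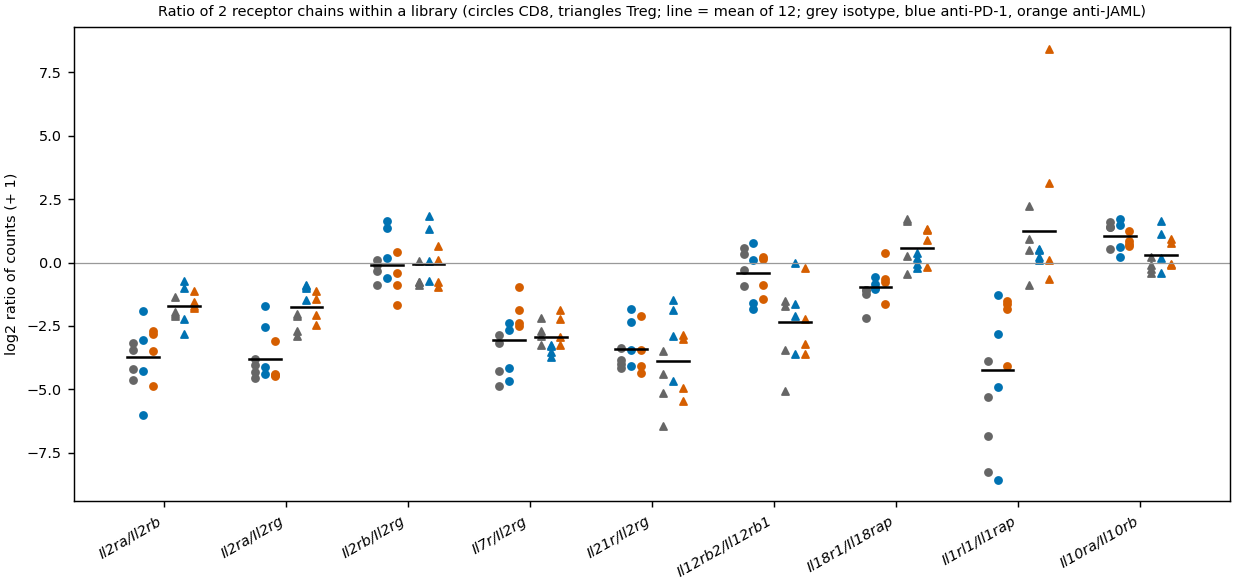
Log2 ratio of counts (1 added to each) of 2 chains of 1 receptor within each library on the vertical axis, for 9 pairs on the horizontal axis; circles are CD8 libraries, triangles Treg libraries, colours the antibodies, and bars the mean of 12. Il2ra relative to Il2rb or Il2rg, Il18r1 relative to Il18rap and Il1rl1 relative to Il1rap are lower in CD8 libraries, while Il2rb relative to Il2rg has the same centre in both populations, at -0.10 and -0.07.

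The rest of the cytokine pathways was read from fixed lists, over all antibody groups, where 26.1% of all genes were called, 14.2% as higher and 11.9% as lower in CD8 cells. Of 22 other receptor chains tested 2 were higher and 9 lower in CD8 cells, with a median log2 fold change of -0.78 against -0.01 for all genes. By smallest p these were Ifngr1, a chain of the interferon gamma receptor, at -1.35 ± 0.10 (SE), the decoy receptor Il1r2 at -1.66 ± 0.22, Il18rap at 1.58 ± 0.23 and Crlf2, a chain of the TSLP receptor, at -1.36 ± 0.24. Of 11 JAK kinases and STAT factors 1 was higher, Stat4, which relays IL-12, at 0.81 ± 0.13, and 5 were lower, among them Stat2 at -1.83 ± 0.28 and Jak2 at -1.16 ± 0.22. Of 11 inhibitors of cytokine signalling 1 was higher, the phosphatase Ptpn6 at 0.63 ± 0.17, and 4 were lower, with Cish at -3.48 ± 0.49, Socs2 at -4.75 ± 0.68 and Socs1 at -1.02 ± 0.15.

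Cish and Socs2 are textbook targets of STAT5, the factor through which IL-2 and IL-7 signal, and the STAT5-responsive list went partly the same way as Il2ra. Of its 14 genes 7 were lower and 3 higher in CD8 cells, beside 11.9% and 14.2% of all genes, with a median of -0.91. The 4 of smallest p were Ccnd2, a cyclin, at -1.11 ± 0.10, Pim1, a kinase, at -1.77 ± 0.21, Bcl2l1, which protects from cell death, at -2.15 ± 0.30 and, in the other direction, Myc at 0.95 ± 0.09. The list shares Cish, Socs2 and Socs1 with the list of inhibitors. Against the same shares, of 9 genes on a list for IL-1 receptor family signalling 4 were lower and 0 higher by edgeR. The 4 were Sigirr at -1.10 ± 0.15, Irak2 at -1.72 ± 0.30, Irak4 at -0.88 ± 0.23 and Irak3. The last was at 0 in all CD8 libraries and averaged 4.36 CPM in Treg cells. Of 7 ligands tested 3 were higher in CD8 cells and 1 lower, beside 14.2% and 11.9% of all genes: Il10 was lower by -4.30 ± 0.69, while Il33, Il21 and Il2 were higher at means of only 1.96 to 4.15 CPM in CD8 cells.

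The antibodies were compared within each population, and in each of the 6 comparisons edgeR called 0 of 10 chains. The background was 0% of 12648 genes for anti-JAML against isotype in CD8 cells, 0% for anti-PD-1 against isotype, and 0.00791% for anti-JAML against anti-PD-1. In Treg cells it was 0% of 12981 genes for anti-JAML against isotype, 0.0231% for anti-PD-1 against isotype and 0% for anti-JAML against anti-PD-1. At an unadjusted p under 0.05 edgeR gave 1, 1 and 3 of 10 chains in the CD8 comparisons in that order (11.7%, 5.61% and 9.97% of genes), and 0, 7 and 2 of 10 in the Treg comparisons (5.38%, 14.1% and 5.72% of genes). DESeq2, run as an alternative, called 1, 0 and 1 chains in CD8 cells, beside 2.17%, 0.385% and 2.91% of the genes to which it gave an adjusted p. In Treg cells it called 0, 2 and 1, beside 1.02%, 5.62% and 0.937%. Groups without overlap were counted for 1, 1 and 1 of 10 chains in CD8 cells (9.13%, 6.85% and 5.92% of genes) and for 0, 3 and 2 of 10 in Treg cells (2.7%, 8.22% and 4.58%). Comparisons that share a control group share its libraries and are not independent.

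Il7r accounted for most of the chains called by DESeq2. In CD8 anti-JAML it stood at 226, 272, 129 and 185 CPM, in CD8 isotype at 20.1, 29.6, 81.5 and 79.7 CPM and in CD8 anti-PD-1 at 30.5, 20.8, 110 and 49.8 CPM. The 4 anti-JAML libraries were above all 8 others. The log2 fold change against isotype was 1.98 ± 0.54 (SE; unadjusted p = 0.00265, edgeR adjusted p = 0.295, DESeq2 adjusted p = 0.0189), and against anti-PD-1 it was 1.97 ± 0.54 (0.00277, 0.207 and 0.0137). Replicate 2 of CD8 anti-JAML, with the highest Il7r, also held 412 CPM of Lyz2, and replicate 4 the highest mitochondrial share. Without these libraries the values were 1.78 against isotype and 1.76 against anti-PD-1. With the GC contrast as a covariate they were 2.13 and 2.06.

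In Treg cells the Il7r group that stood apart was that given anti-PD-1, and it was low. Treg anti-PD-1 held 80.1, 43.0, 77.7 and 75.5 CPM, below the 135 to 255 CPM of Treg isotype and the 122 to 230 CPM of Treg anti-JAML, with no overlap. The log2 fold change of anti-PD-1 against isotype was -1.27 ± 0.29 (SE; unadjusted p = 0.000738, edgeR adjusted p = 0.0968, DESeq2 adjusted p = 0.00209), and anti-JAML against anti-PD-1 gave 1.22 ± 0.29 (0.001, 0.513 and 0.0128). Without replicates 1 and 4 of Treg anti-PD-1, those with the most Lyz2, the first value was -1.45, and with the GC contrast as a covariate it was -1.21. Against isotype, anti-JAML gave -0.05 ± 0.28 in Treg cells. The effect of anti-JAML on Il7r was 1.996 ± 0.63 higher in CD8 than in Treg cells on the log2 scale, with an unadjusted p of 0.00422 and an adjusted p of 0.368 in edgeR (0.0821 in DESeq2). In that test of the difference 0 of 10 chains and 0% of 14591 genes were called, and the same held for the difference in the anti-PD-1 effect (0 of 10 and 0%). At an unadjusted p under 0.05, edgeR gave 2 and 1 of 10 chains in these tests, beside 8.39% and 6.25% of genes, and DESeq2 called 0 in both, beside 1.72% and 1.26%.

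For Il2ra, the Treg group with the highest level was Treg anti-PD-1. Its 288 to 410 CPM lay above the 141 to 269 CPM of Treg isotype without overlap, at a log2 fold change of 0.78 ± 0.22 (SE; unadjusted p = 0.00375, edgeR adjusted p = 0.153, DESeq2 adjusted p = 0.025). With genes detected as a covariate it was 0.49, and with the GC contrast 0.61. Treg anti-JAML, at 211 to 331 CPM, overlapped both other groups, with 0.42 ± 0.22 against isotype. In CD8 cells anti-PD-1 gave 0.86 ± 0.47 and anti-JAML 0.47 ± 0.46, where the groups overlapped.

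Of the other 5 chains with an unadjusted p under 0.05 for anti-PD-1 against isotype in Treg cells, 3 were higher and 2 lower. Il21r stood at 36.1, 204, 210 and 97.6 CPM against 29.96, 55.1, 14.6 and 78.1 CPM, with a log2 fold change of 1.62 ± 0.65 (SE; edgeR adjusted p = 0.273). Il12rb1 stood at 18.6, 159, 128 and 61.0 CPM against 20.9, 20.0, 24.3 and 51.3 CPM, with 1.65 ± 0.65 (0.259). Replicates 2 and 3 of Treg anti-PD-1 carried most of both differences, and replicate 1 lay within the isotype range for Il21r and below it for Il12rb1. The same libraries had the highest GC contrasts of the group, 0.58 and 0.63, and with that contrast as a covariate the values were 0.03 for Il21r and -0.13 for Il12rb1. With genes detected as a covariate they were -0.05 and -0.16.

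Il12rb2 in Treg anti-PD-1 stood at 18.2, 36.4, 10.5 and 19.8 CPM against 0.571, 6.14, 8.55 and 4.65 CPM in Treg isotype, without overlap. Its log2 fold change was 2.09 ± 0.80 (SE; edgeR adjusted p = 0.251), and 1.88 with the GC contrast as a covariate; the overlap with Serbp1 applies here too. Il2rg was lower by -0.56 ± 0.19 (0.206) and Il18r1 by -0.72 ± 0.28 (0.259). The value of Il2rg was -0.08 with genes detected as a covariate, and that of Il18r1 was -0.38 without replicates 1 and 4 of Treg anti-PD-1.

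The remaining antibody values were scattered. In CD8 cells Il12rb1 was 1.37 ± 0.48 higher after anti-PD-1 than after isotype (unadjusted p = 0.0133, edgeR adjusted p = 0.865), with 20.2, 49.7, 8.94 and 33.9 CPM against 8.45 to 14.5 CPM, so that replicate 3 overlapped the isotype group. The direct comparison of the antibodies (anti-JAML over anti-PD-1) in CD8 cells gave 0.67 ± 0.23 for Il2rg (0.0135 and 0.326) and -1.12 ± 0.48 for Il12rb1 (0.0345 and 0.44). In Treg cells the same comparison gave 0.78 ± 0.28 for Il18r1 (0.0159 and 0.765), and 0.45 without replicates 1 and 4 of Treg anti-PD-1. Il18r1 had 1.30 ± 0.42 in the test of whether the anti-PD-1 effect differed between CD8 and Treg cells (unadjusted p = 0.00465, adjusted p = 0.57), since it stood higher after anti-PD-1 in CD8 cells and lower in Treg cells. Il1rl1 had 3.86 ± 1.73 in the matching test for anti-JAML (0.036 and 0.553), which rests on the CD8 isotype counts near 0. None of the 6 pathway lists had a gene past the edgeR threshold in an antibody comparison.

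**Figure D4:**
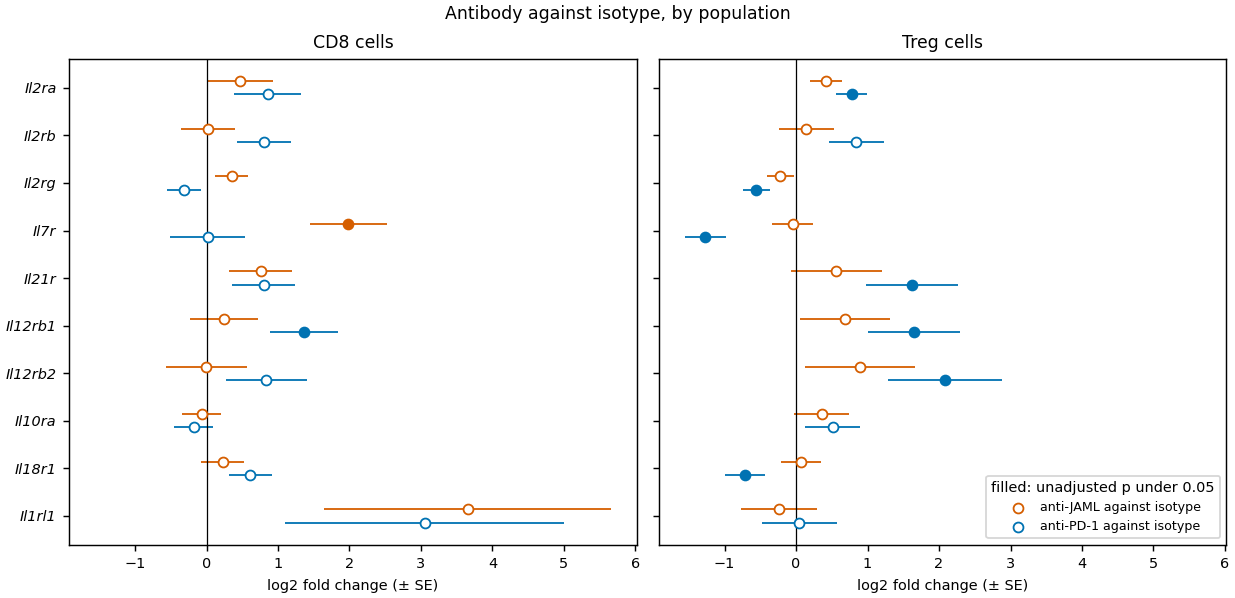
Log2 fold change against isotype (horizontal axis, with SE bars) for each receptor chain after anti-JAML and anti-PD-1, in CD8 cells on the left and Treg cells on the right; filled points have an unadjusted p under 0.05 in edgeR and none passed an adjusted p of 0.05. Il7r stands at 1.98 after anti-JAML in CD8 cells and at -1.27 after anti-PD-1 in Treg cells, while Il1rl1 in CD8 cells has the widest errors.

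A set of 4 chains varied together from library to library within a group. After each library's log2 CPM was centred on its group mean, 45 pairs of chains and the relation of each chain to the GC contrast and to genes detected were examined, 65 relations over 24 libraries with 100000 permutations within groups. By Pearson r, 8 of the 45 pairs passed an adjusted permutation p of 0.05, 7 positive and 1 negative. The 6 pairs among Il2rb, Il21r, Il12rb1 and Il10ra were all among them, with Pearson r from 0.75 (Il12rb1 with Il10ra; adjusted permutation p = 0.0151, Spearman rho 0.69, 0.0293) to 0.85 (Il2rb with Il10ra; 0.000867, rho 0.86, 0.00217). The latter was 0.80 without the 2 libraries farthest from the median, 0.83 within CD8 and 0.88 within Treg libraries. These 4 chains bind different cytokines but share a high transcript GC content of 53.2% to 57.2%, against 40.8% to 48.6% for the other 6.

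Each of these 4 chains also rose with the GC contrast. Il2rb, Il21r and Il12rb1 belong to the upper quartile of GC from which the contrast is built, where a positive relation is the more usual: of its 3580 genes 65.2% had a positive r, with a median of 0.19 (quartiles -0.15 and 0.45), beside 54.5% and 0.05 over all 14591 genes. Pearson r was 0.84 for Il2rb (adjusted permutation p = 0.00065, rho 0.84, 0.00217), 0.82 for Il21r (0.0013, rho 0.79, 0.00377), 0.77 for Il12rb1 (0.00137, rho 0.75, 0.00532) and 0.79 for Il10ra (0.00221, rho 0.81, 0.00377). Without the 2 libraries farthest from the median these were 0.85, 0.83, 0.82 and 0.80. None of the other 6 chains was called in its relation to the GC contrast, with Pearson r between -0.61 (Il2rg; adjusted permutation p = 0.0528) and 0.16 (Il18r1); by Spearman, Il2rg passed, with rho -0.63 (0.0315). As a description, r was above that of 96% to 98.2% of the upper quartile for the 4 chains, Il10ra included, which lies outside it. A contrast by transcript length, also computed for each library, was high in some libraries with a high GC contrast. It was 0.67 and 0.60 in replicates 2 and 3 of Treg anti-PD-1, where the GC contrast was 0.58 and 0.63. In replicate 1 of Treg anti-JAML the 2 contrasts were 0.61 and 0.42, and in replicate 2 of CD8 anti-JAML 0.51 and 0.41. The parts of GC content and length were not told apart, and what moves the GC contrast between libraries was not tested.

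Il2rg fell as more genes were detected, with r = -0.77 (adjusted permutation p = 0.000867, rho -0.81, 0.00217), and -0.77 without the 2 farthest libraries; in TPM in place of CPM it was -0.56. Il12rb1 rose with genes detected, with r = 0.72 (0.00325, rho 0.72, 0.00377), and 0.66 without those 2. The negative pair was Il2rg with Il12rb1, with r = -0.63 (0.0186, rho -0.68, 0.00984), -0.67 without the 2 farthest libraries and -0.16 in TPM. The remaining positive pair was Il2ra with Il18r1, with r = 0.59 (0.017, rho 0.69, 0.00377), 0.68 without the 2 farthest libraries, 0.62 within CD8 and 0.63 within Treg libraries. By Spearman alone, Il2rg also passed with Il2rb (rho -0.67, adjusted permutation p = 0.00984; Pearson 0.0887) and with Il21r (rho -0.60, 0.0333).

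**Figure D5:**
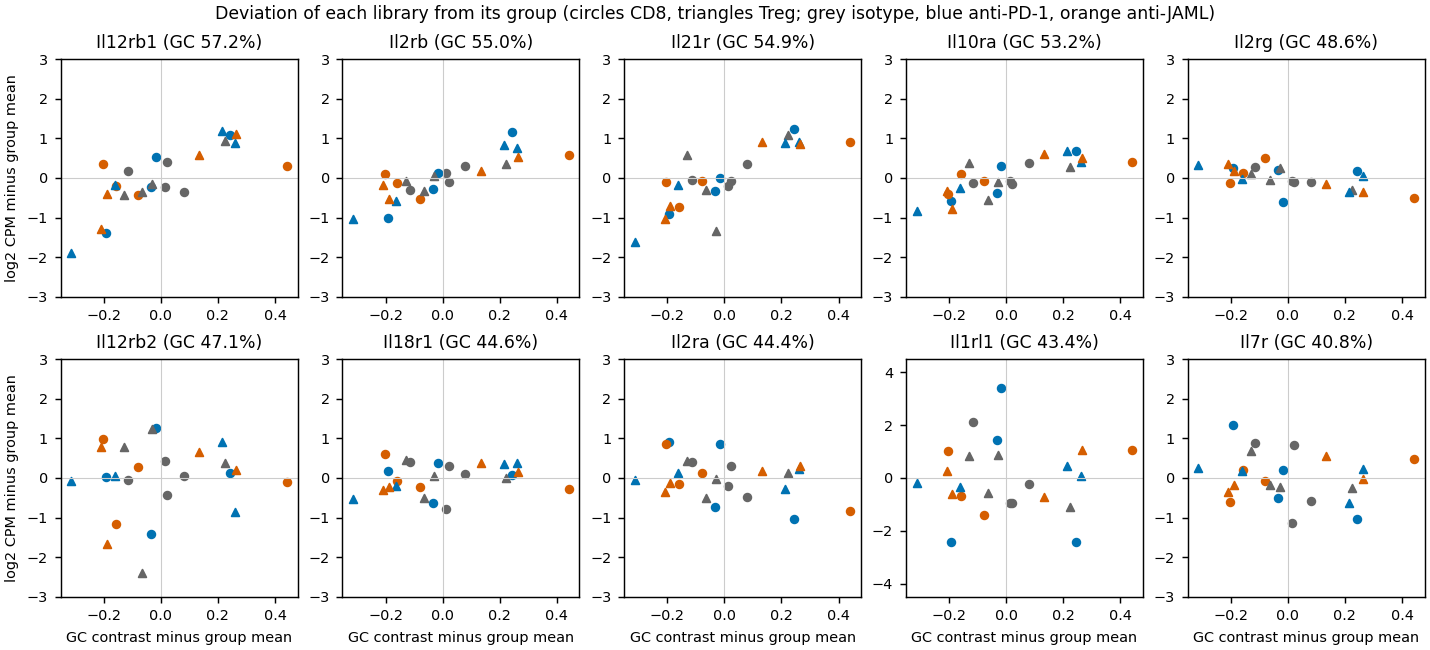
Deviation of each library from its group mean in log2 CPM (vertical axis) against its deviation in GC contrast (horizontal axis), 1 panel per receptor chain, ordered by transcript GC content; circles are CD8 and triangles Treg libraries. Points rise from left to right for Il12rb1, Il2rb, Il21r and Il10ra, with r from 0.77 to 0.84, and the other 6 have no relation called by Pearson r.

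As a description over all 24 libraries, differences between groups included, the genes whose log2 CPM was most like that of Il2ra were Foxp3, Capg and Cd4 (Pearson r 0.92, 0.91 and 0.91), all of which separate the populations in the same way. For Il7r they were S1pr1, Tsc22d3 and Skap1 (0.91, 0.89 and 0.86), and for Il12rb2 they were Zcchc8, Fkbp7 and Nat10 (0.79, 0.76 and 0.74). Libraries of 1 group and population share depth and makeup in these values, so they carry no test.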

How the data were processed

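The authors deposited whole-number counts per gene and library and, for the same libraries, TPM values scaled per transcript length; both units were read as deposited, and no other sample's columns were present (0). The tools named, per the submitters' processing notes, are STAR 2.7.3a, fastp 0.20.1, deepTools 3.3.1 and SAMtools, with the build mm10. Which tool counted, with which strand setting and on which gene models, is not given in the sources used here. Groups came from the labels. The 10 receptor chains and all gene lists were chosen with earlier results of these data known.

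Counts were tested in R 4.3.3 with edgeR 4.0.16, by its quasi-likelihood F test (TMM, robust dispersion, filterByExpr with minimum count 10 and minimum total 15), two-sided, with Benjamini-Hochberg adjustment over all genes tested and a threshold of 0.05. The 8 libraries of an antibody group entered a CD8 against Treg comparison, the 12 of a population an antibody comparison, and all 24 the others. The SE is the absolute log2 fold change divided by the square root of F. The test was tried on simulated counts: at a log2 change of 1 it recovered 2% of changed genes for CD8 against Treg after isotype, 49.5% over all groups and 5.1% for anti-JAML against isotype in CD8 cells, and at 2 it recovered 67.3%, 98.9% and 58.2%. Log2 CPM used a prior count of 2. The rule named fold changes of chains past the threshold or with an unadjusted p under 0.05; those of other chains were added after their values were seen. Up to 4 genes of smallest p are named from each list, apart from 1 that is not reported here.

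Replicate numbers were not used to pair libraries, since the labels do not say whether they mark a mouse. Deviations of same-numbered CD8 and Treg libraries correlated at -0.08 to 0.13, with 1 of 12 pairs over 0.1. These values cannot exclude a shared mouse, because technical spread may hide it. Alternatives were DESeq2 1.42.0, RLE scaling, no filter, other sets of libraries, a replicate block, genes detected as a covariate and each library left out in turn. The GC contrast as a covariate, and TPM in the correlations, were chosen after seeing the data. Positions and transcript GC came from GENCODE M21, whose IDs matched 54209 rows, with a GC value for 98.1% of filtered genes. Promoter windows came from RefSeq (GRCm38.p6), where 7 of 10 chains matched; Il2rb, Il12rb1 and Il10ra did not. Reads were amplified and carry no molecular identifiers, so they do not count separate molecules.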

Additional observations from a re-analysis of the deposited data

Results flagged for a closer look

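In 7 of 60 sets of 4 libraries (10 chains in 6 groups) 1 library lay far from the other 3, by a gap that as a share of the range in CPM exceeded Dixon's 95% critical value; chance flags about 1 in 20 such sets. Il7r was involved in both directions in Treg cells: replicate 2 of Treg isotype was high at 255.2 CPM, against 135 to 140.2 CPM in the others, and replicate 2 of Treg anti-PD-1 was low at 43.0 CPM, against 75.5 to 80.1 CPM. Il2rg was high in replicate 3 of CD8 isotype, at 746 CPM against 574 to 589 CPM, and low in replicate 4 of CD8 anti-PD-1, at 313 CPM against 536 to 569.8 CPM. Il12rb1 was high in replicate 4 of Treg isotype, at 51.3 CPM against 20.0 to 24.3 CPM, the isotype library of that population with the highest GC contrast, 0.24. Il10ra was high in replicate 2 of CD8 isotype, at 193 CPM against 134 to 143 CPM. Il1rl1 in CD8 isotype was at 0.949 CPM in replicate 3 and at most 0.0853 CPM in the others.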

How the results depend on the processing

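The number of receptor chains called depended on the tool. DESeq2 called 3 chains for CD8 against Treg in the anti-PD-1 groups and 3 in the anti-JAML groups, in place of 1 each, and in CD8 cells 1 for anti-JAML against isotype, 1 for anti-JAML against anti-PD-1, 2 for anti-PD-1 against isotype in Treg cells and 1 for anti-JAML against anti-PD-1 in Treg cells, in place of 0. The GC contrast as a covariate gave 3 chains for CD8 against Treg in the anti-PD-1 groups, beside 725 genes in place of 955. Leaving out replicates 1 and 4 of Treg anti-PD-1 gave 2 chains there, and its count over all genes is not given here. With the replicate block 3 of the 6 isotype calls passed (not Il2rb, Il7r and Il12rb1). In 5 of 12 cases a CD8 library correlated best with the Treg library of its own number, where chance gives 3, and between antibodies in 6 of 24, where chance gives 6. Over all groups the block lost Il2rb (adjusted p = 0.0531) and gained Il7r (0.0403). Leaving out 1 library gave 3 to 6 called chains after isotype, 1 to 2 after anti-PD-1 and 4 to 5 over all groups. Reversed values were Il21r at -0.049 and Il12rb1 at -0.16 with genes detected as a covariate (anti-PD-1 against isotype, Treg), and Il12rb1 at -0.13 there and 0.22 for CD8 against Treg after anti-PD-1 with the GC contrast. Leaving out 1 library moved the ratio Il2rb/Il2rg between -0.19 and 0.10 and Il7r/Il2rg between -0.26 and 0.00058, both without a call. Of 39 chain results each, RLE scaling, no filter and DESeq2 kept the direction of 39. The causes were not tested.

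Leave-one-out aside, counts over all genes ranged more widely, from 1075 (replicate block) to 3041 (DESeq2) after isotype, where the main count was 1791, from 725 to 2343 after anti-PD-1 (955), from 95 to 1080 after anti-JAML (248) and from 3164 to 4627 over all groups (3804). In antibody comparisons DESeq2 called 294, 59 and 376 genes in CD8 cells (anti-JAML against isotype, anti-PD-1 against isotype, anti-JAML against anti-PD-1) where edgeR called 0, 0 and 1, and 166, 792 and 140 in Treg cells where edgeR called 0, 3 and 0; for the differences between populations it called 302 (anti-JAML) and 215 (anti-PD-1) against 0. Low counts limit Il1rl1 and Il12rb2 most.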
